A study of Homo sapiens with 6 samples.

Results

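The genes described here are the 4 inhibitor of DNA binding genes ID1, ID2, ID3 and ID4 together with 6 genes of bone morphogenetic protein (BMP) signalling. These are the ligands BMP2 and BMP4, the receptor BMPR1A, the pseudoreceptor BAMBI, the transducer SMAD1 and the inhibitory SMAD6. They were taken by gene name and make up 10 of the 58735 genes in the table. Total RNA was sequenced from cells labelled T24, the name of a human bladder cancer line, grown in RPMI1640 with serum. Levels are given as FPKM, fragments per kilobase of gene scaled to a total for each library, so that genes can be compared per length. There were 3 libraries labelled sgOTUD1, whose genotype is given as OTUD1 knockout, and 3 libraries labelled sgNC, which carry an empty vector as negative control. OTUD1 encodes a deubiquitinase. The labels name no guide, no clone and no separate cultures, so the spread between libraries may be technical. These genes were chosen with the result of this same comparison known. Their differences between the groups are therefore given as a description, with no test of single genes.

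BMP ligands bind paired type I and type II receptor kinases, which phosphorylate SMAD1, SMAD5 and SMAD9, and these enter the nucleus with SMAD4. ID genes are among the best known direct targets of this route, and BAMBI, SMAD6 and SMAD7 are targets that feed back on it as inhibitors. ID proteins have a helix-loop-helix but no DNA-binding region. They bind E proteins such as TCF3 and TCF12 and keep them off their E-box sites.

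In the sgOTUD1 libraries all 4 ID genes, both ligands and BAMBI were at higher levels than in the sgNC libraries, with no overlap between the groups, while the receptor gene BMPR1A was lower and SMAD1 and SMAD6 overlapped. ID2 stood out, at 8.47 times its sgNC mean, followed by BMP4 at 2.63 times, BAMBI at 2.18 times, BMP2 at 1.81 times and ID3 at 1.71 times. ID1, by far the most abundant of the 10, averaged 795.9 FPKM in sgOTUD1 and 639 FPKM in sgNC. Of the 10 genes, 9 passed the filter of a mean of 0.5 FPKM, and SMAD6 did not. At a limma adjusted p under 0.05, 7 of these 9 were counted as higher, where 31.2% of all 14658 genes tested were, and 1 as lower, where 24.7% were. Groups that do not overlap were about as common, with 34.9% of all tested genes entirely higher and 29.1% entirely lower. After removal of a trend with gene length, described further on, 5 were counted as higher (26.3% of all genes) and 1 as lower (28.0%), and ID1 and ID4 were no longer called. Nothing is read from these counts, since the genes were chosen with this comparison in view.

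Sequences just upstream of the transcription start are shown for the 4 ID genes and BAMBI, which moved in the same direction and which BMP signalling is known to induce. RefSeq promoter sequences on GRCh38.p14 were matched for 9 of the 10 genes, and the 250 bases before the start are printed from 5′ to 3′ on the strand of the gene. Capitals mark matches, on either strand, to GGCGCC, a GC-rich element to which BMP-activated SMADs can bind, to CCAAT, the core of the NF-Y site, to the TATA box core TATAAA, or to the E-box CAGCTG, a site of E proteins. The ID1 sequence lies at chr20:31605039-31605288 on the plus strand, ID2 at chr2:8681806-8682055 on the plus strand, ID3 at chr1:23559502-23559751 on the minus strand, ID4 at chr6:19837120-19837369 on the plus strand and BAMBI at chr10:28677271-28677520 on the plus strand. The starts are those of RefSeq and can differ from the gene ends given further on. By those, the ID2 and ID3 windows lie inside the gene, and the ID1 and BAMBI windows reach into it.
ID1: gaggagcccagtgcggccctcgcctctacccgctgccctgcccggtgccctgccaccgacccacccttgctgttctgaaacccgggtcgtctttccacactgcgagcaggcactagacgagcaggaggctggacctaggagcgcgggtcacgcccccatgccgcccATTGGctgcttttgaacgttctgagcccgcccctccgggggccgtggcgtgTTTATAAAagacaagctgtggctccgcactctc
ID2: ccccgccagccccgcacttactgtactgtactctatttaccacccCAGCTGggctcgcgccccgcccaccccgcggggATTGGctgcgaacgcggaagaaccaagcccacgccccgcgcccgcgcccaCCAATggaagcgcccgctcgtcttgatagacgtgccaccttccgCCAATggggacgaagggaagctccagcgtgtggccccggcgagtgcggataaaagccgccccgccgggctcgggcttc
ID3: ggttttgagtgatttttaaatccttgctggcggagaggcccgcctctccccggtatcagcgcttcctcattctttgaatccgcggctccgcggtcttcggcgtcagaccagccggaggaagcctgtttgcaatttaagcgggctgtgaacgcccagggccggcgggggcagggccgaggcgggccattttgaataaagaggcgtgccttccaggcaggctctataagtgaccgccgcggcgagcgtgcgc
ID4: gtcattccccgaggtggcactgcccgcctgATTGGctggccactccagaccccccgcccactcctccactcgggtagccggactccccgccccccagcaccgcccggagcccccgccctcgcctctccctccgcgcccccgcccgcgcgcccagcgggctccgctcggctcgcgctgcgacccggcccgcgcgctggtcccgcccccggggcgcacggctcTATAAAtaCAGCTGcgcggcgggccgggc
BAMBI: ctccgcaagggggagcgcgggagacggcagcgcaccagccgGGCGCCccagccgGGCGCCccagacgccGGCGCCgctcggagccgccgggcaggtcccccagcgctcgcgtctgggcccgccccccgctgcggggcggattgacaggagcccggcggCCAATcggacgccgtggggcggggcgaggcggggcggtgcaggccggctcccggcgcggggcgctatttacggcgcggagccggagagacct

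BAMBI held 3 matches to GGCGCC in this window, a number reached by 0.527% of the 35116 promoter sequences in the table, and 16.4% held at least 1. None of the 4 ID windows held it. SMAD1, whose windows are not printed, held 2 matches to GGCGCC at each of its RefSeq starts 4 and 5. BMP4, also not printed, held 1 at its start 1. ID2 held 3 CCAAT matches, as many or more than which were found in 2.93% of promoters, and ID1, ID4 and BAMBI held 1 each, where 32.0% of promoters held at least 1. ID1 and ID4 had TATAAA shortly before the start, from position -31 to -26 in ID1 and from -29 to -24 in ID4, counted so that -1 is the last base before the start. In ID1 the match on the opposite strand, from -33 to -28, overlaps it. TATAAA was found in 10.7% of promoters. CAGCTG was found in ID2, from -205 to -200, and in ID4, from -21 to -16, and in 14.0% of promoters. ID3 held none of the 4 motifs in this window. The printed windows were rich in G and C, from 62.0% in ID3 to 81.2% in BAMBI, against a median of 58.0% over all promoters. The shares of promoters given here were not taken among promoters of like G and C content. A match is a stretch of letters only, and BMP-responsive elements may lie farther upstream than the window.

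The targeted gene comes before the results as a check of the labels. The OTUD1 transcript was higher, not lower, in the libraries that the labels call sgOTUD1, at 16.2, 17.9 and 17.1 FPKM against 13.9, 15.6 and 14.6 FPKM in sgNC. Its log2 fold change was 0.20 (SE 0.054, limma adjusted p = 0.0167), and an exact permutation test (two-sided) gave p = 0.1, the minimum for groups of 3 and 3. The call ended without sgOTUD1 replicate 2 (0.17, limma adjusted p = 0.0552), without sgNC replicate 1 (0.17, limma adjusted p = 0.0566), and under median-ratio rescaling (0.07), TPM (0.06) or length correction (0.02). The link of each column to its sample rests on the submitters' description field alone, and an exchange of the groups there would turn every direction given here. Where a guide leaves a short insertion or deletion, the transcript level is no check of it. Between 16697370 and 17191933 reads per library lay on genes, and the mitochondrial share of reads was 2.15% ± 0.077 in the libraries labelled sgOTUD1 and 4.01% ± 0.18 in sgNC (SD, n = 3 each). Of the epithelial and urothelial markers, KRT5 was at 1483 FPKM in the libraries labelled sgOTUD1 and 1195 FPKM in sgNC, and the urothelial factors GATA3 (4.94 FPKM in sgOTUD1 and 3.96 FPKM in sgNC) and FOXA1 (5.70 FPKM in sgOTUD1 and 2.87 FPKM in sgNC) were expressed. KRT14 (942.6 FPKM in sgOTUD1 and 707.2 FPKM in sgNC) and EPCAM (91.59 FPKM in sgOTUD1 and 68.06 FPKM in sgNC) were higher too. CDH1 (48.16 FPKM in sgOTUD1 and 69.09 FPKM in sgNC) and TP63 (36.02 FPKM in sgOTUD1 and 41.15 FPKM in sgNC) went the other way. PPARG was at 0.385 FPKM in sgOTUD1 and 0.411 FPKM in sgNC. KRT20 was at 0.0439 FPKM in sgOTUD1 and 0.295 FPKM in sgNC, and both were under the filter. Of the 8 markers of this list past the filter, 5 were called higher and 2 lower. Over all tested genes, 31.2% were called higher and 24.7% lower. Of the uroplakin genes, UPK2 was at 1.89 FPKM in sgOTUD1 and 1.45 FPKM in sgNC, UPK1A and UPK1B were at most at 0.162 FPKM and UPK3A was listed at 0 in every library. The 5 mesenchymal markers summed to 138.2 to 147.4 FPKM in the libraries labelled sgOTUD1 and 202.3 to 208.7 FPKM in sgNC, most of it from FN1 (91.4 FPKM in sgOTUD1 and 168.9 FPKM in sgNC) and VIM (48.2 FPKM in sgOTUD1 and 33.7 FPKM in sgNC), with ZEB1 at most at 0.0783 FPKM. That the cells are T24 is taken from the labels alone, and these markers were not compared with other data of that line.

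Scaling and gene length bear on every fold change below. The library totals by which the deposited FPKM was scaled were not the reads on genes. In sgOTUD1 they were 16237967.3 to 16654341.5, below the 16965127 to 17191933 reads on genes. In sgNC they were 17490558.6 to 17980829.9, above the 16697370 to 17004704 reads on genes. Set against scaling to those reads, this raises levels in sgOTUD1 and lowers them in sgNC. Of the genes called, 55.9% were higher with the deposited scaling, against 39.7% after median-ratio rescaling and 38.2% with TPM, and the median log2 fold change of all tested genes was 0.03, -0.07 and -0.10 under these 3 scalings. Fold change also went with annotated exon length. Among nuclear protein-coding genes the median log2 fold change was 0.25 in the 2844 shortest (up to 3243 nt) and -0.15 in the 2843 longest (from 7457 nt). A natural spline of this trend was removed per library as an alternative, and values from that fit are called length-corrected. They are given for the ID and BMP genes past the filter, and for other genes where they differ from the value as deposited by over 1.5-fold or end its call, and for some more. Whether the trend is technical was not tested.

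**Figure D1:**
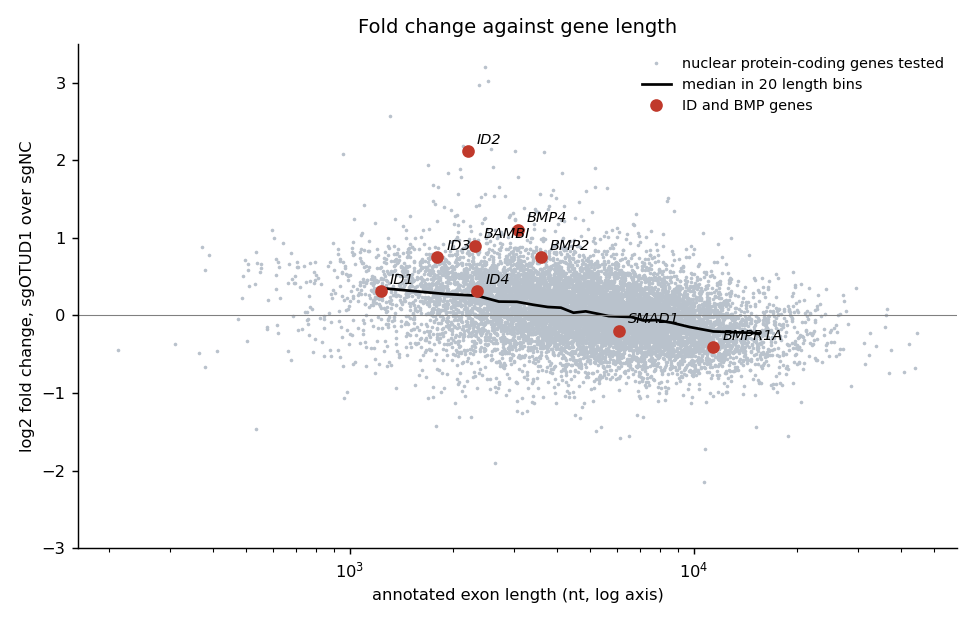
Each grey point is a nuclear protein-coding gene, with annotated exon length in nt on a log axis and the log2 fold change of sgOTUD1 over sgNC on the vertical axis, the line joins medians of 20 length bins, and red points are the ID and BMP genes past the filter. ID2, at 2.12, and BMP4, at 1.11, lie far above the line, while ID1 and ID4, both at 0.32, lie close to it.

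ID1 (ENSG00000125968) is a gene of 1233 nt of exon at chr20:31605283-31606515 on the plus strand of hg38. It was at 771.8, 805.7 and 810.3 FPKM in the sgOTUD1 libraries, against 618.5, 624.7 and 673.8 FPKM in sgNC. All 3 sgOTUD1 values lay above the highest sgNC value. The log2 fold change was 0.32 (SE 0.042), and 0.03 (SE 0.024) after length correction. In bulk libraries, more cells that express a gene and more RNA per cell cannot be told apart.

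ID2 (ENSG00000115738, 2205 nt of exon, chr2:8678845-8684453, plus strand) had 6.21, 7.18 and 6.93 FPKM in the sgOTUD1 libraries, against 0.998, 0.883 and 0.519 FPKM in sgNC. The lowest sgOTUD1 library was thus far above the highest sgNC library. The reads behind these levels were 228, 257 and 250 in the sgOTUD1 libraries, against 39, 35 and 20 in sgNC, which add up to 735 (exact Poisson 95% interval 683 to 790.1) and 94 (76.0 to 115), intervals that cover counting error only. The log2 fold change was 2.12 (SE 0.11) on the scale of log2(FPKM + 1), which understates the change of a gene at this level, and 2.97 with an offset of 0.1. It ranked 16th from the highest among the 14658 genes tested. Length correction left 1.88 (SE 0.12). The antisense gene ID2-AS1 shares 38 bases of exon with ID2 and averaged 0.0394 FPKM in sgOTUD1 and 0.0644 FPKM in sgNC, far below ID2.

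ID3 (ENSG00000117318, 1797 nt of exon, chr1:23557918-23559794, minus strand) was the second in abundance, at 65.0, 71.2 and 67.8 FPKM in the sgOTUD1 libraries and 38.1, 38.8 and 42.7 FPKM in sgNC. The groups were well apart. Its log2 fold change of 0.76 (SE 0.055) was 0.50 (SE 0.04) after length correction. ID4 (ENSG00000172201, 2344 nt of exon, chr6:19837386-19840684, plus strand) was low, at 2.10, 2.02 and 2.06 FPKM in the sgOTUD1 libraries and 1.54, 1.35 and 1.49 FPKM in sgNC, from 77 to 82 and 57 to 64 reads per library. Its groups did not overlap, though both rest on few reads. The log2 fold change was 0.32 (SE 0.063), and 0.09 (SE 0.065) after length correction.

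Added up, the 4 ID genes came to 872.7 ± 24 FPKM in sgOTUD1 and 681.1 ± 33 FPKM in sgNC (SD, n = 3 each). The make-up of this sum was not the same in the groups. ID1 made up 91.2% ± 0.24 of it in sgOTUD1 and 93.8% ± 0.034 in sgNC. The share of ID3 was 7.79% ± 0.22 in sgOTUD1 and 5.85% ± 0.085 in sgNC, and that of ID2 was 0.776% ± 0.038 in sgOTUD1 and 0.119% ± 0.041 in sgNC. The share of ID4 was 0.236% ± 0.011 in sgOTUD1 and 0.215% ± 0.017 in sgNC, values that overlapped between libraries. Shares within a library do not depend on how libraries are scaled to each other. ID2 was above ID4 in sgOTUD1, with ID4 at 0.282 to 0.338 times ID2, and below it in sgNC, with ID4 at 1.53 to 2.87 times ID2.

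**Figure D2:**
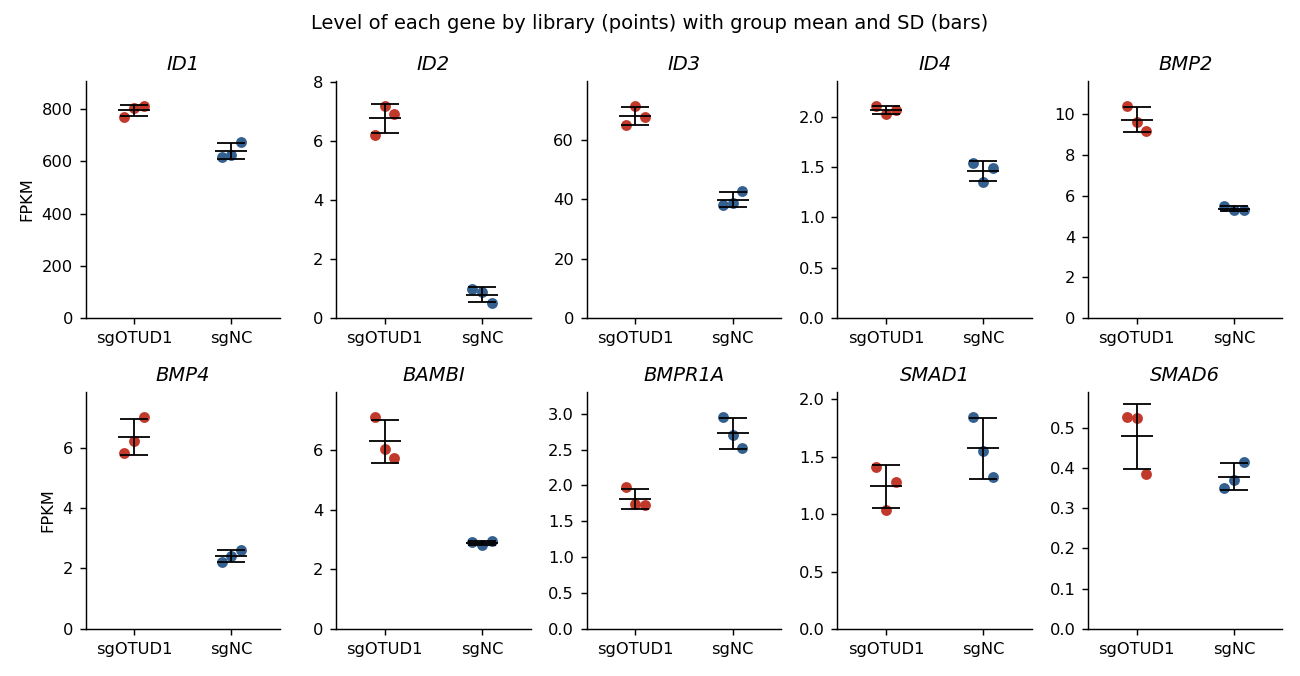
FPKM of each of the 10 genes by library, with sgOTUD1 in red and sgNC in blue; points are libraries and bars are the group mean and SD (n = 3 each), and every vertical axis starts at 0. The groups are apart for all genes except SMAD1 and SMAD6, and as a ratio of group means ID2 differs most (6.77 FPKM in sgOTUD1 and 0.800 FPKM in sgNC).

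Both ligand genes were higher in sgOTUD1. BMP2 (ENSG00000125845, chr20:6767664-6780280, plus strand) was at 10.4, 9.63 and 9.17 FPKM in the sgOTUD1 libraries and 5.52, 5.31 and 5.30 FPKM in sgNC, a log2 fold change of 0.75 (SE 0.053). BMP4 (ENSG00000125378, chr14:53949736-53958761, minus strand) was at 5.83, 6.21 and 7.005 FPKM in the sgOTUD1 libraries and 2.22, 2.40 and 2.62 FPKM in sgNC, a log2 fold change of 1.11 (SE 0.076). No sgOTUD1 library fell into the sgNC range for either ligand. After length correction the values were 0.62 (SE 0.056) for BMP2 and 0.94 (SE 0.069) for BMP4. The ligands' summed level was 16.1 ± 0.2 FPKM in sgOTUD1 and 7.79 ± 0.11 FPKM in sgNC, and the ratio of BMP2 to BMP4 was 1.55 ± 0.24 in sgOTUD1 and 2.24 ± 0.23 in sgNC (SD, n = 3 each).

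BMPR1A (ENSG00000107779, chr10:86756601-86932838, plus strand), a type I receptor kinase for these ligands, was the only one of the 10 counted as lower. It was at 1.98, 1.74 and 1.73 FPKM in the sgOTUD1 libraries and 2.95, 2.71 and 2.52 FPKM in sgNC, with no overlap. Its log2 fold change was -0.40 (SE 0.071). With 11412 nt of exon it is the longest of the 10 genes, and length correction gave -0.24 (SE 0.066). BAMBI (ENSG00000095739, chr10:28677342-28682939, plus strand) encodes a transmembrane protein that resembles a type I receptor but lacks the kinase and dampens signalling. It was at 7.11, 6.04 and 5.74 FPKM in the sgOTUD1 libraries and 2.93, 2.81 and 2.94 FPKM in sgNC. Its sgOTUD1 libraries were spread more widely than its sgNC libraries, and all were above them. The log2 fold change was 0.90 (SE 0.075), and 0.68 (SE 0.082) after length correction. The ratio of BAMBI to BMPR1A was 3.46 ± 0.14 in sgOTUD1 and 1.06 ± 0.091 in sgNC (SD, n = 3 each).

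The 2 SMAD genes did not separate the groups. SMAD1 (ENSG00000170365, chr4:145481194-145558079, plus strand), a transducer of BMP receptors, was at 1.41, 1.04 and 1.28 FPKM in the sgOTUD1 libraries and 1.84, 1.55 and 1.32 FPKM in sgNC. The highest sgOTUD1 library lay above the lowest sgNC library, and the log2 fold change was -0.20 (SE 0.1), or -0.18 (SE 0.1) after length correction. It was -0.12 without sgNC replicate 1 and -0.13 without sgOTUD1 replicate 2. SMAD6 (ENSG00000137834, chr15:66702228-66782848, plus strand), an inhibitory SMAD induced by the pathway, was at 0.526, 0.525 and 0.386 FPKM in the sgOTUD1 libraries and 0.349, 0.370 and 0.414 FPKM in sgNC. These values rest on 54 to 75 reads per library in sgOTUD1 and 53 to 62 in sgNC, and sgOTUD1 replicate 3 lay inside the sgNC range. With no filter its log2 fold change was 0.10 (SE 0.081).

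In order of level, ID1, ID3 and BMP2 came highest in both groups and SMAD6 lowest. ID2 was the fourth in sgOTUD1 and the ninth in sgNC. In sgOTUD1, ID2 (6.77 ± 0.5 FPKM), BMP4 (6.35 ± 0.6) and BAMBI (6.30 ± 0.72) did not differ beyond their spread. In sgNC the same held for BAMBI (2.89 ± 0.071 FPKM) and BMPR1A (2.73 ± 0.22), and for SMAD1 (1.57 ± 0.26) and ID4 (1.46 ± 0.097).

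**Figure D3:**
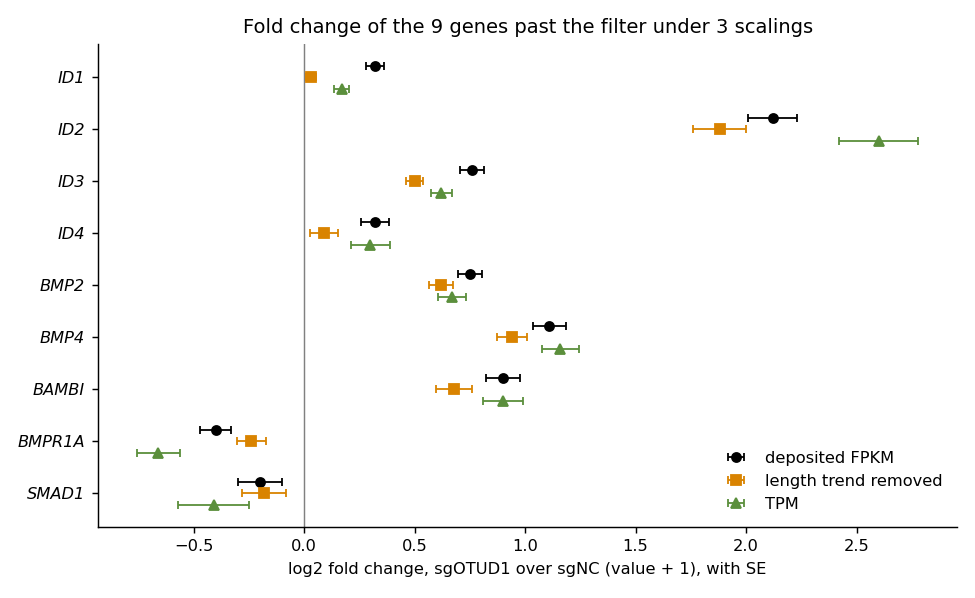
Log2 fold change of sgOTUD1 over sgNC with its SE for the 9 genes past the filter, from the deposited FPKM, after removal of the length trend and from TPM, each with an offset of 1. Direction was the same under all 3, and ID1 (0.32, 0.03 and 0.17) and ID4 (0.32, 0.09 and 0.30) came closest to 0 after length correction.

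TPM values are on a larger scale than FPKM, so the offset of 1 weighs less on low genes, and ID2 was at 2.60 there. BMPR1A was at -0.66 with TPM and SMAD1 at -0.41. ID1 was at 0.18 with median-ratio rescaling and 0.17 with TPM. The directions of the 9 genes were the same under every alternative that could be computed for them. On the reads, limma-voom gave 3.11 (SE 0.23) for ID2, 1.39 (SE 0.12) for BMP4 and -0.59 (SE 0.084) for BMPR1A. Its library sizes were the totals behind the deposited FPKM, so it shares the scaling of the FPKM.

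Genes whose levels ran most like those of each ID gene over the 6 libraries were taken from protein-coding genes of at least 5 FPKM, by Pearson's r of log2(FPKM + 1). For ID2 they were DUSP6, a phosphatase of ERK (r = 0.9995, 8.65 FPKM in sgOTUD1 and 2.52 FPKM in sgNC), HNRNPK (0.9993) and TUFT1 (0.9990). For ID3 they included TPM2 (0.9999) and RPL12 (0.9997). They were, for ID1, GALK1 (0.9994), GRHPR (0.9991) and ATP6V0B (0.9990), and for ID4 BICD2 (0.9978), ITGB3BP (0.9971) and GBP3 (0.9969). With 6 libraries in 2 groups such values mostly restate the difference between the groups, and 20.6% to 27.7% of the genes compared had an r above 0.95.

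Other genes of the route were taken by role from a list of 87, of which 43 passed the filter. In this wider list 14 were higher and 12 lower in sgOTUD1, shares close to those of all genes, with a median log2 fold change of 0.04 against 0.03 over all genes tested. The list was drawn up with earlier results of these data known. Genes were named from each role by smallest p, and some whatever their call. The adjusted p-values that follow are limma's, over all 14658 genes, and do not allow for this choice. Median-ratio rescaling called 12 higher and 19 lower, and TPM 11 higher and 19 lower. Of all 14658 genes tested, median-ratio rescaling called 3266 higher and 4971 lower, and TPM 3140 higher and 5087 lower. Among calls that held, median-ratio rescaling put FSTL3 at -0.33, FZR1 at -0.38, USP1 at -0.37, SMURF2 at -0.36, RUNX2 at 0.23 and USP15 at 0.19. TPM put BMP8B at -0.68, ENG at -1.10 and NOG at 1.26, where its larger scale also lessens the weight of the offset.

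Of the 7 receptors and co-receptors past the filter, 4 were lower and 0 higher by limma, where 24.7% of all tested genes were lower and 31.2% higher, and after length correction 4 were lower and RGMB was called higher. These counts rest on few genes and the group was not tested. BMPR2, the type II receptor of BMPs, fell to 3.32 ± 0.14 FPKM in sgOTUD1, against 5.68 ± 0.21 FPKM in sgNC (SD, n = 3 each; log2 fold change -0.63, limma adjusted p = 6.46e-05), and was at -0.45 after length correction. NEO1, which binds the RGM co-receptors, was at 5.15 FPKM in sgOTUD1 and 7.41 FPKM in sgNC (-0.45, limma adjusted p = 0.000422). The co-receptor ENG was at 0.853 FPKM in sgOTUD1 and 1.94 FPKM in sgNC (-0.67, limma adjusted p = 0.000737). Endoglin is abundant in endothelium, and the 6 endothelial markers summed to 0.995 to 1.203 FPKM in sgOTUD1 and 2.73 to 3.08 FPKM in sgNC. Most of this came from CDH5 (0.644 FPKM in sgOTUD1 and 2.20 FPKM in sgNC). VWF was at 0.170 FPKM in sgOTUD1 and 0.385 FPKM in sgNC, and ERG at 0.259 FPKM in sgOTUD1 and 0.256 FPKM in sgNC. PECAM1 was at most at 0.031 FPKM and KDR was at 0. The part of these markers in the ENG values was not tested. The type I receptor ACVR1 was at 3.98 FPKM in sgOTUD1 and 4.58 FPKM in sgNC (-0.16, limma adjusted p = 0.0305), a call that ended with a replicate block, in 5 of the 6 fits that left out a library, with limma-voom and without the filter. ACVR1 was at -0.27 after length correction, -0.28 with median-ratio rescaling and -0.33 with TPM.

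Of the ligands, BMP6 rose to 2.22 FPKM in sgOTUD1, against 1.24 FPKM in sgNC (log2 fold change 0.52, limma adjusted p = 0.00923), and this call ended with length correction (0.33, limma adjusted p = 0.0587). BMP8B fell to 2.50 FPKM in sgOTUD1, against 3.77 FPKM in sgNC (-0.44, limma adjusted p = 0.00228). The other 10 ligand genes listed were under the filter. Extracellular antagonists were split. NOG, which encodes the BMP-binding antagonist noggin, rose to 1.52 ± 0.11 FPKM in sgOTUD1, against 0.417 ± 0.056 FPKM in sgNC (0.83, limma adjusted p = 0.000199). FST, which encodes follistatin, an antagonist of activins and some BMPs, fell to 63.5 FPKM in sgOTUD1, against 85.9 FPKM in sgNC (-0.43, limma adjusted p = 0.00011). Its relative FSTL3 was at 34.6 FPKM in sgOTUD1 and 39.7 FPKM in sgNC (-0.19, limma adjusted p = 0.0197), and that call ended without sgNC replicate 1 or 3 and without the filter. FSTL3 was at -0.36 after length correction.

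Among the remaining SMAD genes, SMAD7 rose and SMAD4 was not called. SMAD7, an inhibitory SMAD of the BMP and TGF-beta routes, was at 1.86, 2.43 and 2.04 FPKM in the sgOTUD1 libraries and 1.09, 1.249 and 1.56 FPKM in sgNC (log2 fold change 0.44, limma adjusted p = 0.0102). SMAD5, the most abundant of the BMP transducers here, was at 8.53 FPKM in sgOTUD1 and 7.38 FPKM in sgNC (0.19, limma adjusted p = 0.0319), a call that ended with a replicate block, with either rescaling (0.06 in each), without the filter and in 4 of the 6 fits that left out a library. After length correction SMAD5 was at 0.30. SMAD4, the shared partner, was at 1.94 FPKM in sgOTUD1 and 2.27 FPKM in sgNC (-0.15, limma adjusted p = 0.116), was called lower with both rescalings and limma-voom, and was at 0.04 after length correction. SMAD9 was under the filter, at 0.256 FPKM in sgOTUD1 and 0.227 FPKM in sgNC.

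Regulators inside the cell were higher in 4 and lower in 3 of 11, where 31.2% of all tested genes were higher and 24.7% lower. TOB1, an antiproliferative protein that can bind BMP SMADs and repress them, rose to 31.7 FPKM in sgOTUD1, against 15.1 FPKM in sgNC (log2 fold change 1.03, limma adjusted p = 1.18e-05). FKBP1A, which holds type I receptors inactive, rose to 127.2 FPKM in sgOTUD1, against 89.5 FPKM in sgNC (0.50, limma adjusted p = 1.42e-05), and USP15, a deubiquitinase of SMADs and type I receptors, to 2.60 FPKM in sgOTUD1, against 1.94 FPKM in sgNC (0.29, limma adjusted p = 0.00807). The USP15 call ended with TPM (0.23, limma adjusted p = 0.0578). After length correction FKBP1A was at 0.29 and USP15 at 0.55. The SMAD corepressors SKI (3.08 FPKM in sgOTUD1 and 5.57 FPKM in sgNC, -0.68, limma adjusted p = 0.00021) and SKIL (9.84 FPKM in sgOTUD1 and 12.5 FPKM in sgNC, -0.32, limma adjusted p = 0.00141) fell, as did the ubiquitin ligase SMURF2 (15.9 FPKM in sgOTUD1 and 18.8 FPKM in sgNC, -0.23, limma adjusted p = 0.0025).

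Among 9 further transcription targets of BMP signalling, 4 passed the filter, and 3 of these were higher, where 31.2% of all tested genes were. This count too rests on few genes, with no test of the group. The homeobox genes MSX2 (5.88 FPKM in sgOTUD1 and 3.68 FPKM in sgNC, log2 fold change 0.56, limma adjusted p = 0.00176) and DLX2 (1.85 FPKM in sgOTUD1 and 0.748 FPKM in sgNC, 0.71, limma adjusted p = 0.000937) rose, and so did RUNX2, a regulator of bone formation (29.8 FPKM in sgOTUD1 and 23.0 FPKM in sgNC, 0.36, limma adjusted p = 0.000394). All 3 calls held after length correction, at 0.33, 0.53 and 0.45. The targets under the filter include ATOH8, HEY1 and HAMP.

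Of the partners that ID proteins bind, the E protein gene TCF3 lay between ID3 and ID2 in level. It was at 29.2 ± 1.3 FPKM in sgOTUD1 and 30.1 ± 0.56 FPKM in sgNC (SD, n = 3 each; log2 fold change -0.04, limma adjusted p = 0.411), and TCF12 was at 5.02 FPKM in sgOTUD1 and 5.32 FPKM in sgNC (-0.07, limma adjusted p = 0.253). Both were called lower under median-ratio rescaling (-0.18 and -0.19) and TPM (-0.19 and -0.22), and after length correction TCF3 was at -0.02 and TCF12 at 0.05. TCF4 was under the filter, at 0.0912 FPKM in sgOTUD1 and 0.117 FPKM in sgNC. TCF12 was above ID4 in both groups, and above ID2 in sgNC but not in sgOTUD1. The summed ID level, most of it ID1, was 25.5 ± 0.21 times that of TCF3 and TCF12 in sgOTUD1 and 19.2 ± 0.82 times in sgNC (SD, n = 3 each). TWIST1, a bHLH factor of mesenchymal cells, rose to 6.25 ± 1.2 FPKM in sgOTUD1, against 3.19 ± 0.42 FPKM in sgNC (0.78, limma adjusted p = 0.00241), and ASCL2 to 1.11 FPKM in sgOTUD1, against 0.578 FPKM in sgNC (0.42, limma adjusted p = 0.0108). The ASCL2 call ended with length correction (0.16, limma adjusted p = 0.219).

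Of 6 genes that act on ID protein turnover, 1 was higher and 2 were lower, where 31.2% of all tested genes were higher and 24.7% lower. USP1, a deubiquitinase that stabilises ID proteins, fell to 14.5 FPKM in sgOTUD1, against 17.3 FPKM in sgNC (log2 fold change -0.24, limma adjusted p = 0.00145). FZR1, an activator of the anaphase-promoting complex, which marks ID2 for degradation, fell to 9.05 FPKM in sgOTUD1, against 10.96 FPKM in sgNC (-0.25, limma adjusted p = 0.00915). COPS5, the catalytic subunit of the COP9 signalosome, rose to 7.28 FPKM in sgOTUD1, against 5.06 FPKM in sgNC (0.45, limma adjusted p = 0.000342). DYRK1A, DYRK1B and VHL were not called as deposited, and after length correction DYRK1A was called higher and VHL lower. ID protein levels were not measured.

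**Figure D4:**
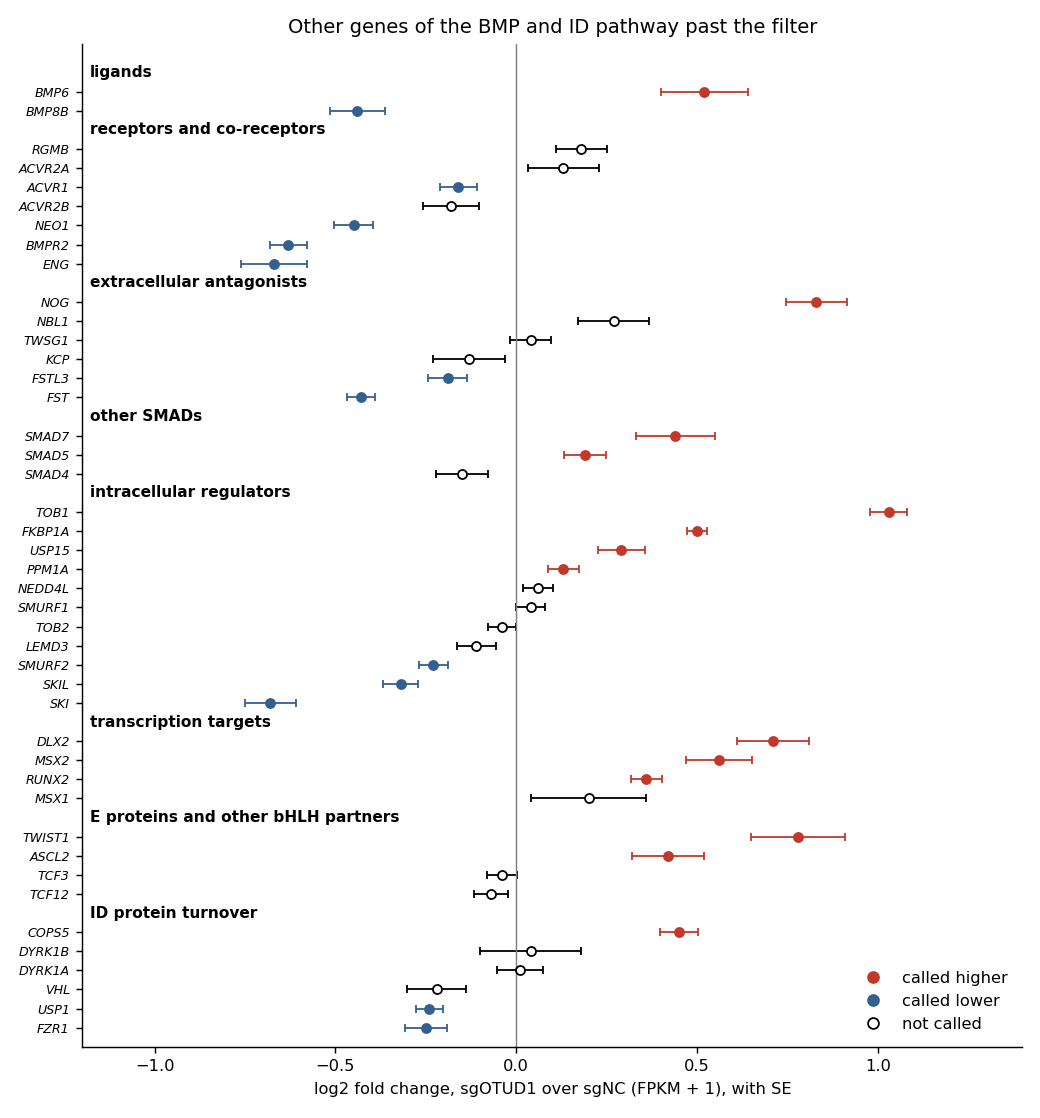
Log2 fold change of sgOTUD1 over sgNC on the log2(FPKM + 1) scale with its SE for the 43 other genes of the BMP and ID route past the filter, grouped by role; red is called higher, blue called lower and open not called at a limma adjusted p under 0.05. Calls lie on both sides, 14 higher and 12 lower, where 31.2% of all tested genes are called higher and 24.7% lower.

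Fibroblast markers summed to 7.15 to 7.32 FPKM in sgOTUD1 and 9.50 to 10.1 FPKM in sgNC, with COL3A1, LUM and PDGFRB at 0. Leukocyte markers summed to 0.438 to 0.620 FPKM in sgOTUD1 and 1.13 to 1.43 FPKM in sgNC, with PTPRC at 0. Most of the leukocyte sum came from CSF1R (0.429 FPKM in sgOTUD1 and 1.142 FPKM in sgNC). All 13 mitochondrial mRNAs, a sign of RNA quality, were lower in sgOTUD1 (median log2 fold change -1.26). The part of either in the values above was not tested.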

How the data were processed

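The authors deposited FPKM for each gene in each library, per the file headers. Their tools, per the submitters' processing notes, include featureCounts 1.5.0-p3 and DESeq2 1.20.0, with build hg38; no source used here gives the aligner or strand setting. Groups and replicate numbers come from the sample titles, and the link of each column to its sample from the description field alone. All 58735 identifiers were in GENCODE 29. FPKM times exon length gave whole reads for 100% of values above 0 (tolerance 0.01 reads).

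The 14658 genes that averaged 0.5 FPKM or more were fitted as log2(FPKM + 1) in limma 3.58.1 (R 4.3.3, with trend and robust set), with two-sided p-values adjusted by Benjamini-Hochberg. Fold changes on that scale understate the change of low genes. Libraries of a group were not duplicates (chi-square per gene between 2.06 and 3.75).

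Genes and lists were chosen with earlier results of these data known. From each role, up to 3 genes called higher and 3 called lower with the smallest p were named, plus SMAD4, SMAD5, SMAD7, SMAD9, BMPR2, ACVR1, TCF3, TCF12 and TCF4 whatever their call. For each ID gene, the 3 genes with the highest Pearson r were taken, of which 1 is not reported here. Others were named after their values were seen, for context. The motifs were chosen with the results known and were not part of the design. Alternatives were a replicate block, leaving out each library, no filter, a mean of at least 5 FPKM, an offset of 0.1, median-ratio rescaling on genes of at least 5 FPKM, TPM, limma without trend and robust options, removal of the length trend (natural spline, 4 degrees of freedom), limma-voom on the recovered reads, and a 1.5-fold threshold. The library sizes given to limma-voom were the totals behind the deposited FPKM.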

Additional observations from a re-analysis of the deposited data

How the results depend on the processing

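Same-numbered libraries did not deviate together over the genes tested (correlations of deviations from group means 0.002, -0.051 and -0.001). With 3 libraries per group a weak shared effect can be missed, so this cannot settle whether the numbers pair the samples. A replicate block gave 4431 genes higher and 3360 lower, with 7 and 1 among the ID and BMP genes. Leaving out 1 library gave 4065 to 4305 genes higher and 3073 to 3299 lower over the table, 12 to 13 higher and 10 to 12 lower in the wider list, and 0.17 to 0.24 for OTUD1. OTUD1 was at 0.07 with median-ratio rescaling, 0.06 with TPM and 0.02 after length correction, none of them called. At a mean of at least 5 FPKM fewer genes were tested, and 3463 of 7047 were higher and 1757 lower over the table. There, 3 of the ID and BMP genes were higher and 0 lower, and 7 of the wider list were higher and 8 lower. A change of more than 1.5-fold on top left 1270 genes higher and 775 lower, and 4 higher and 3 lower in the wider list. Both rescalings called 19 of the wider list lower, where median-ratio rescaling called 4971 and TPM 5087 of all 14658 genes lower. Limma-voom counted 2 of the ID and BMP genes lower, the added gene being SMAD1, and 4019 of all 14658 genes. Length correction turned SMAD4 to 0.04 and TCF12 to 0.05, neither called in either fit, and left 5 of the ID and BMP genes higher. Among values of the named wider genes under alternatives, 375 kept direction and side of the threshold, 22 lost the call, 7 gained it and 2 changed sign. The depth limits SMAD6, with 53 to 75 reads per library, and ID4, with 57 to 82. The cause of these changes was not tested.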
